A study of Mus musculus with 10 samples.

Results

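Cdx1, Cdx2 and Cdx4, the caudal-type homeobox genes of the mouse, were followed across 10 whole embryos at embryonic day 7.5 (E7.5). They were taken by exact gene symbol from the deposited table and are 3 of its 20006 listed genes. Of the embryos, 5 were wild type (WT) and 5 carried the genotype labelled Axin1;Axin2 mutant, with column names that read DKO. Axin1 and Axin2 are paralogous scaffold proteins that keep β-catenin, the effector of WNT signalling, low by promoting its breakdown. RNA of each embryo was amplified from 1.9 to 2 ng with a full-length, unstranded kit and sequenced. Allele structure, strain and litter are not stated in the sources used here. The p-values take the embryos as independent, which could not be checked, nor could litter be told apart from genotype.

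Caudal proteins are DNA-binding homeodomain factors of the posterior embryo. WNT, FGF and retinoic acid signals switch their genes on in the primitive streak and tail bud, and the proteins in turn act on trunk Hox genes and on axis elongation. Cdx2 has a further role in the trophectoderm and its derivative, the extra-embryonic ectoderm, and later in the intestine. Cdx1 is known as a direct target of both WNT and retinoic acid, and Cdx4, an X-linked gene, as a WNT-responsive gene of the posterior streak.

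Each of the genes has 3 exons, and the middle exon is 146 bases long in all of them (GENCODE M21, build GRCm38, the assembly of mm10). Cdx1 (ENSMUSG00000024619.8) lies on the minus strand of chromosome 18, 61018862 to 61036199, with 1750 bases of exon. Cdx2 (ENSMUSG00000029646.3) lies on the minus strand of chromosome 5, 147300805 to 147307270, with 2261 bases. Cdx4 (ENSMUSG00000031326.2) lies on the plus strand of chromosome X, 103321398 to 103330592, with 1963 bases.

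No other annotated gene overlaps the exons of these genes, so the lack of strand information does not touch their counts. The longest exact stretch shared by any pair of their transcripts is 22 bases (Cdx2 and Cdx4), against 16 for Cdx1 and Cdx2 and 17 for Cdx1 and Cdx4.

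The stretches just upstream of Cdx2 and Cdx4 are shown because the RefSeq promoter table (GRCm38.p6) held only these 2 of the 3 members. It had no entry for Cdx1. Capitals mark ATGCAAAT, the octamer bound by POU factors, and CCAAT, read on either strand (ATTGG on the other).
Cdx2, chr5:147307271-147307499, minus strand: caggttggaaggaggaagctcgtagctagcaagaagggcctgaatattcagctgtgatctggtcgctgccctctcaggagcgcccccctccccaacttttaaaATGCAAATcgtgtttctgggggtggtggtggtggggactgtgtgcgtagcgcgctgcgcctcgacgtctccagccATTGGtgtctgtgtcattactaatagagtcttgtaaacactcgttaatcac
Cdx4, chrX:103321148-103321397, plus strand: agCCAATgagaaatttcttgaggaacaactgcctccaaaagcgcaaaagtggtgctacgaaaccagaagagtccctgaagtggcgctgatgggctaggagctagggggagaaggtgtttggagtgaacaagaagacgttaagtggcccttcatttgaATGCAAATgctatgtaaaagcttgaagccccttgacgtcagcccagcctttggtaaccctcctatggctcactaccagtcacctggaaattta

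The octamer starts at position -147 of Cdx2 and at -93 of Cdx4, counted from the RefSeq start, and occurs in 1.6% of the 32851 upstream windows of 250 bases in that table. The Cdx2 stretch shown has 229 bases, because it stops at the GENCODE M21 start, which lies upstream of the RefSeq start. Its positions are therefore not counted from the last base shown, and the motif search covered all 250 bases. CCAAT is found in 33.8% of the windows. The octamer, CCAAT and TGACGTCA motifs were chosen after the sequences were seen. TGACGTCA, the cyclic AMP response element, occurs at -61 of Cdx4 and in 1.55% of windows, and its inner GACGTC is also found at -85 of Cdx2 (3.77% of windows; it overlaps the longer motif in Cdx4). In neither window were there matches, on either strand, to the TCF/LEF cores CTTTGAA (in 4.46% of windows), CTTTGAT (in 3.21% of windows), CTTTGTA (in 3.2% of windows) and CTTTGTT (in 5.03% of windows), to the CDX sites TTTATG (in 10.8% of windows) and TTTATT (in 18.1% of windows), or to the retinoic acid receptor motif AGGTCA (in 14% of windows). These matches describe the letters in the windows and are not measured binding sites.

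Libraries held 20744547 to 28505209 reads over the listed genes. A scaled count is a read count divided by the size factor of its embryo. Axin1 was at 3551 ± 244.8 in WT and fell to 1343 ± 582.9 in mutants (SD, n = 5; limma adjusted p = 0.000614), and Axin2, whose exons overlap an antisense gene, was at 440.8 ± 43.1 and 447.6 ± 113.6 (adjusted p = 0.981). The library labelled mutant 4 stood apart, with Axin1 at 65.8% of the WT mean against 23.1% to 37.2% in the other mutants. It was also the only library with both Xist (1050.07 scaled counts) and substantial Y-linked reads (1701 over Ddx3y, Eif2s3y, Kdm5d and Uty). Its summed extra-embryonic ectoderm markers reached 12132, against 3833 to 6200 in the other 9 embryos, through Tfap2c (9354) and Gata3 (2059.72), while Elf5 (145.5), Eomes (491) and Esrrb (81.9) were at the lowest values of all 10 embryos. Decidual markers (Prl8a2, Dcn and Des) summed to 11830 in mutant 3 and 3825 in the library labelled mutant 4, against 247 to 1292 elsewhere. Cdx2 and Cdx4 are also given without the library labelled mutant 4 and without mutants 3 and 4 together. Most gene lists are given with all embryos only. The part of these differences in the caudal values was not tested.

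Cdx4 showed the widest separation of the genotypes, Cdx1 rose with a wide spread among WT embryos, and Cdx2 was higher in 4 of 5 mutants without passing the threshold. Of the members 2 of 3 were called higher by limma at an adjusted p below 0.05, a call made for 11.4% of the 15429 genes tested (13.8% were called lower and 25.1% in either direction). In whole embryos, more cells that express a gene and more RNA per cell cannot be told apart.

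**Figure D1:**
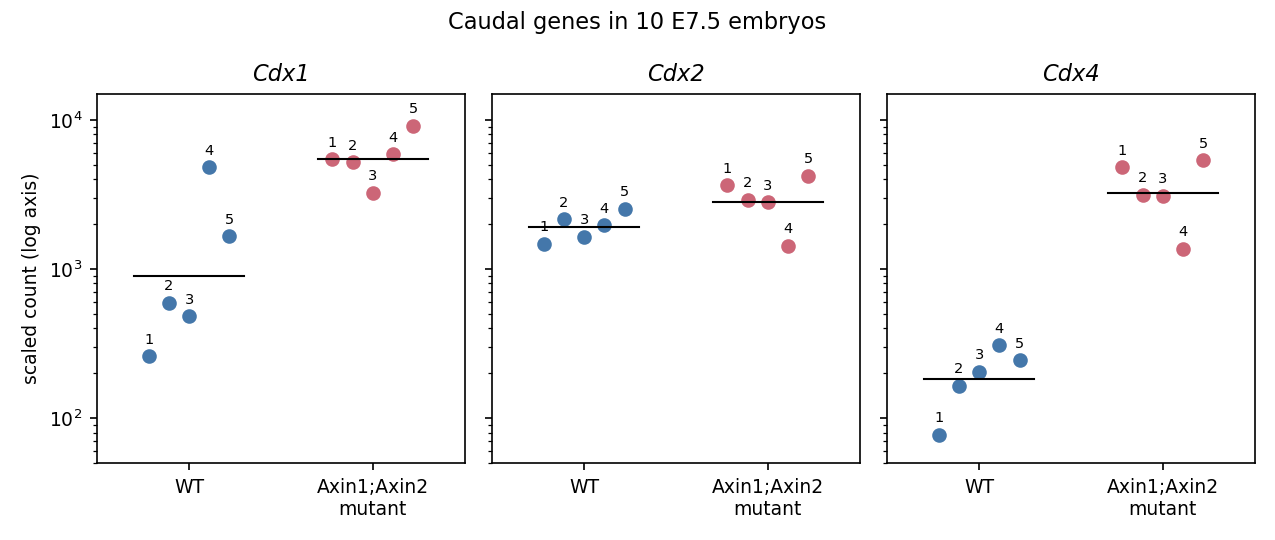
Scaled counts (log axis) of Cdx1, Cdx2 and Cdx4 in each embryo, with the replicate number above each point and a line at the geometric mean of the group. Cdx4 has no overlap between the genotypes, whereas WT 4 reaches the mutant range for Cdx1 and mutant 4 lies below every WT embryo for Cdx2.

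Cdx4, the posterior streak member, was low in WT beside its level in mutants. It measured 77.7, 165.1, 205.5, 309.1 and 244.1 scaled counts in WT 1 to 5 and 4809.96, 3146, 3086, 1370.45 and 5361 in mutants 1 to 5. Every mutant lay above every WT embryo, which was so for 7.14% of the genes tested (17.1% had no overlap in either direction). The lowest mutant value was that of the library labelled mutant 4.

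The means were 200.3 ± 86.7 in WT and 3555 ± 1581 in mutants (SD, n = 5). On the scale of log2(scaled count + 1), Cdx4 rose by 4.14 (SE 0.40, limma adjusted p = 4.78e-05; two-sided exact permutation p = 0.00794, the smallest that groups of 5 and 5 allow). This is a 17.6-fold difference (95% interval 9.63 to 32.1), the 35th largest log2 fold change of the genes tested. It was 4.44 without the library labelled mutant 4 and 4.56 for mutants 1, 2 and 5 against WT.

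Cdx4 lies on the X chromosome, so the embryos' Xist and Y-linked reads are given beside it. WT 1, WT 2, WT 5 and mutant 3 had Xist at 1268 to 3597 scaled counts and at most 1.01 scaled counts over the Y-linked genes. Within WT, Cdx4 was 77.7, 165.1 and 244.1 in these embryos and 205.5 and 309.1 in WT 3 and WT 4, which had Y-linked reads. Mutant 3, at 3086, lay just below mutant 2, at 3146, which had Y-linked reads. The part of the X chromosome number in Cdx4 was not tested.

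Cdx1, the member known to respond to both WNT and retinoic acid, varied most among WT embryos. It measured 259.96, 594.8, 482.6, 4824 and 1663 scaled counts in WT 1 to 5 and 5455, 5199, 3243, 5881 and 9137 in mutants 1 to 5. WT 4 exceeded mutant 3, so the groups overlapped, and the other 4 mutants lay above every WT embryo. The highest WT embryo was 18.6 times the lowest, against 2.82 times among mutants.

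Mean Cdx1 was 1565 ± 1900.5 in WT and 5783 ± 2131 in mutants (SD, n = 5). It rose by 2.60 on the log2 scale (SE 0.63, limma adjusted p = 0.0113; exact permutation p = 0.0159), a 6.06-fold difference (95% interval 2.34 to 15.7) that ranked 163rd. edgeR on the recovered reads gave 1.89 and did not call it (adjusted p = 0.0615, a call made for 10.8% of genes in the higher direction), whereas DESeq2 gave 1.89 and called it (adjusted p = 0.0352; 14.5% of genes called higher). Without WT 4, the log2 fold change was 3.20 (limma adjusted p = 0.000958). The SD of log2 Cdx1 among WT embryos was 1.66, larger than that of 98.9% of the genes tested, against 0.31 (55.4%) for Cdx2 and 0.76 (90.5%) for Cdx4. Among mutants the SDs were 0.53, 0.60 and 0.77 for Cdx1, Cdx2 and Cdx4.

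Genes of the posterior embryo differed in how they ranked the WT embryos, and those given here were chosen after their values were seen. Aldh1a2, which makes retinoic acid, measured 98.6, 438, 856, 2860 and 1985 scaled counts in WT 1 to 5. Nkx1-2, a homeobox gene of axial progenitors, measured 1173, 1108, 1493, 4205 and 3107. WT 4 and WT 5 were thus the highest WT embryos for these genes as for Cdx1, and WT 1 was the lowest for Cdx1 and Aldh1a2. Others did not follow this order: T (1820.55), Fgf8 (379.9) and Sp8 (184.9) had their lowest WT values in WT 4, and Cyp26a1 was lowest in WT 5 (2679) and next lowest in WT 4 (3270.31). In mutants 1, 2, 3 and 5, Aldh1a2 stood at 60.3 to 249.8 while Cdx1 stood at 3243 to 9137, and in the library labelled mutant 4 they stood at 1808 and 5881. Between genotypes neither Aldh1a2 (−1.61, adjusted p = 0.244) nor Nkx1-2 (−0.57, adjusted p = 0.266) passed the threshold with limma.

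Cdx2, the member with a role in both trophoblast and posterior embryo, differed least between the genotypes. It measured 1480.36, 2149, 1639.75, 1964 and 2534 scaled counts in WT 1 to 5 and 3642, 2917, 2809, 1434 and 4233 in mutants 1 to 5. Mutants 1, 2, 3 and 5 lay above every WT embryo, and the library labelled mutant 4 lay below every WT embryo.

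Cdx2 averaged 1953 ± 417.5 in WT and 3007 ± 1052 in mutants (SD, n = 5), with a log2 fold change of 0.56 (SE 0.25, limma adjusted p = 0.122; exact permutation p = 0.111). The interval of the difference ran from 1.01-fold to 2.15-fold, before any adjustment over genes. The call turned on 1 library. Without the library labelled mutant 4, Cdx2 rose by 0.81 (limma adjusted p = 0.00395, where 13.4% of genes were called higher), and for mutants 1, 2 and 5 by 0.89 (adjusted p = 0.00455; 9.82% called higher). With all embryos, DESeq2 called it (0.62, adjusted p = 0.0402) and edgeR did not (0.62, adjusted p = 0.0882).

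**Figure D2:**
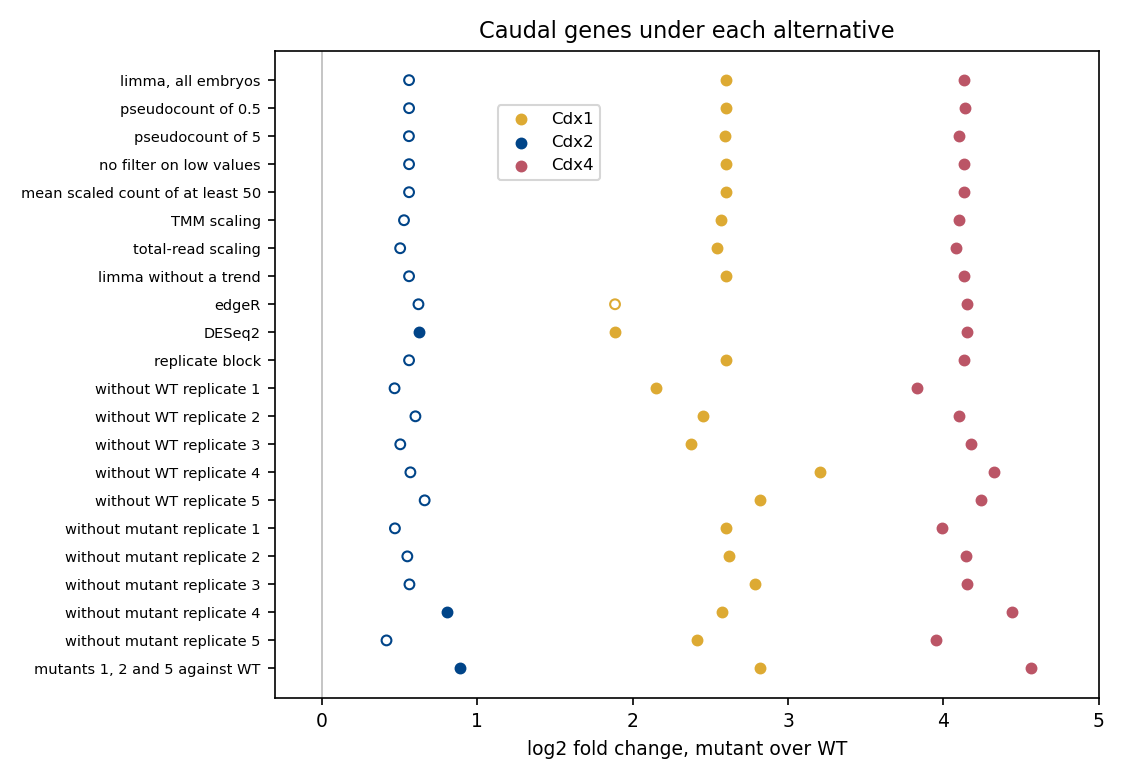
Log2 fold change (mutant over WT) of each caudal gene under each setting, with filled points where the adjusted p is below 0.05 and open points where it is not. Cdx4 stays between 3.83 and 4.56 and is filled throughout, Cdx1 is open with edgeR, and Cdx2 is filled with DESeq2 and in both settings without mutant 4.

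Levels between the genes were compared as scaled counts per kb of exon. In WT, Cdx1 (894 ± 1086) and Cdx2 (864 ± 184.6) did not differ beyond their spread, and Cdx4 was lowest (102.0 ± 44.2; SD, n = 5). Cdx2 was the most abundant member in 4 of 5 WT embryos, WT 4 being the exception. In mutants the order of the means was Cdx1 (3305 ± 1217), Cdx4 (1811 ± 805) and Cdx2 (1329.9 ± 465), and this order held within each of the 5 mutants, although the spreads of Cdx4 and Cdx2 overlap.

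The 3 genes together reached 843 to 3783 scaled counts per kb in WT and 4668 to 9824 in mutants, so that every mutant lay above WT 4, the highest WT embryo. Their make-up differed as well. Cdx2 supplied a median of 65.6% of the summed level per kb in WT (23.0% to 77.7%) and 22.004% in mutants (13.5% to 26.6%). Cdx4 supplied 5.66% (4.16% to 9.47%) in WT and 27.8% (14.9% to 34.1%) in mutants. Cdx1 supplied 24.9% (17.6% to 72.9%) in WT and 50.7% (39.7% to 71.6%) in mutants.

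**Figure D3:**
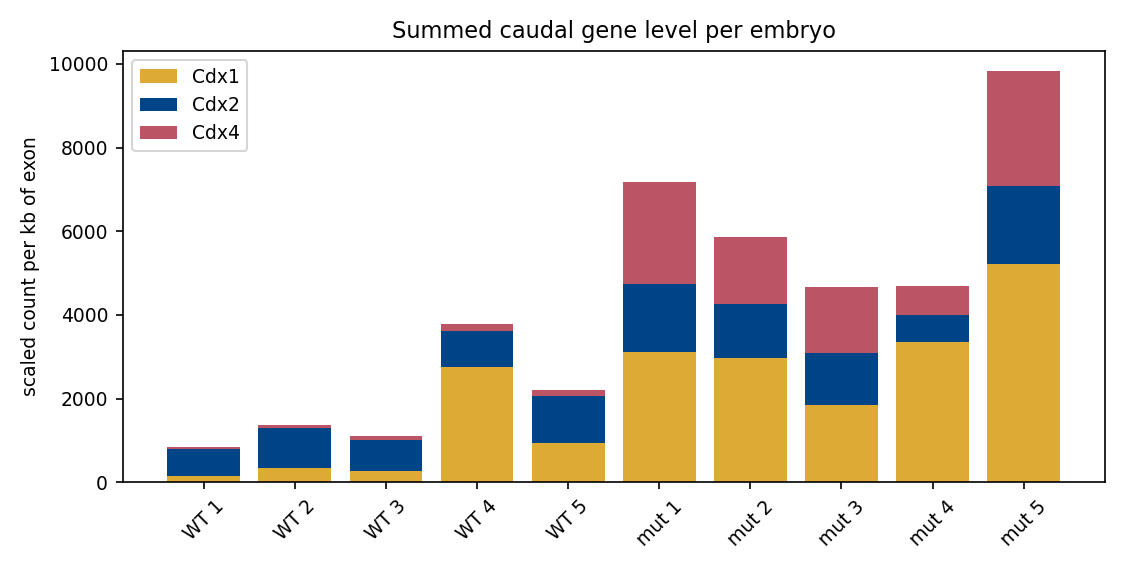
Scaled counts per kb of exon of Cdx1, Cdx2 and Cdx4, stacked for each embryo. The summed level runs from 843 to 3783 in WT and from 4668 to 9824 in mutants, with Cdx4 a thin band in WT and at least 14.9% of each mutant's bar.

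The genotype differences of the members were of unequal size. The log2 ratio of Cdx4 to Cdx2 within an embryo went from −3.39 ± 0.61 in WT to 0.18 ± 0.19 in mutants (SD, n = 5), a difference of 3.57, with 5 of 5 mutants above every WT embryo (exact permutation p = 0.00794, adjusted p = 0.0238 over 3 pairs). In the library labelled mutant 4 this ratio was −0.07, against 0.11 to 0.40 in the other mutants, although both genes were lowest there.

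Cdx1 to Cdx2 differed by 2.04 (−1.09 ± 1.497 in WT and 0.95 ± 0.69 in mutants; SD, n = 5; exact permutation adjusted p = 0.0397), with 1 of 5 mutants above every WT embryo. That mutant was the library labelled mutant 4, at 2.04, against 1.30 in WT 4 as the highest WT value. Cdx4 to Cdx1 differed by 1.53 (−2.30 ± 1.08 and −0.77 ± 0.81; exact permutation adjusted p = 0.0397), with 4 of 5 mutants above every WT embryo. Leaving out 1 embryo at a time, the Cdx1 to Cdx2 ratio lost its call in 9 of 10 comparisons, all but that without WT 4 (differences of 1.69 to 2.64). The Cdx4 to Cdx1 ratio lost it in 8 of 10, all but those without WT 3 or the library labelled mutant 4 (1.12 to 1.87). The exact permutation adjusted p reached 0.0714 for either. Without the library labelled mutant 4, Cdx1 to Cdx2 differed by 1.77 (adjusted p = 0.0714).

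Within genotypes, the order of the mutants was the same for Cdx2 and Cdx4, from the library labelled mutant 4 through mutants 3, 2 and 1 to mutant 5. For Cdx1 the mutants other than that library followed the same order, and that library ranked second highest. WT 1 was the lowest WT embryo for each of the 3 genes, while the highest was WT 4 for Cdx1 and Cdx4 and WT 5 for Cdx2.

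Because the genotypes form separate clusters and 5 embryos are too few for a correlation of their own, correlations were computed over the 10 embryos after the mean of each genotype was removed from the log2 values. Pearson's r was 0.83 for Cdx2 and Cdx4 (permutation within genotypes, p = 0.00465, adjusted p = 0.014 over 3 pairs), with a Spearman's rho of 0.66 (permutation p = 0.0587, adjusted p = 0.127). Leaving out mutants 4 and 5, the embryos farthest from the median of Cdx2, r was 0.68 (permutation p = 0.113) and rho 0.69 (permutation p = 0.0861; n = 8), so the coefficients stayed positive and the call was lost. Without the library labelled mutant 4 alone, r was 0.71 (permutation adjusted p = 0.0693). Cdx1 and Cdx4 had an r of 0.63 (permutation p = 0.0479, adjusted p = 0.0718) and a rho of 0.61 (permutation p = 0.0849). Without WT 1 and WT 4 r was 0.31 (permutation p = 0.404), and without WT 1 alone it was 0.43. Without the library labelled mutant 4 it was 0.85 (permutation adjusted p = 0.0448), so that the order of these pairs by r depended on that library. Cdx1 and Cdx2 had an r of 0.33 (permutation p = 0.219) and a rho of 0.50 (permutation p = 0.136), and without WT 1 and WT 4 an r of 0.39 (permutation p = 0.281). Its r was 0.61 without the library labelled mutant 4 (permutation adjusted p = 0.118) and 0.19 without WT 1 (permutation adjusted p = 0.484).

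**Figure D4:**
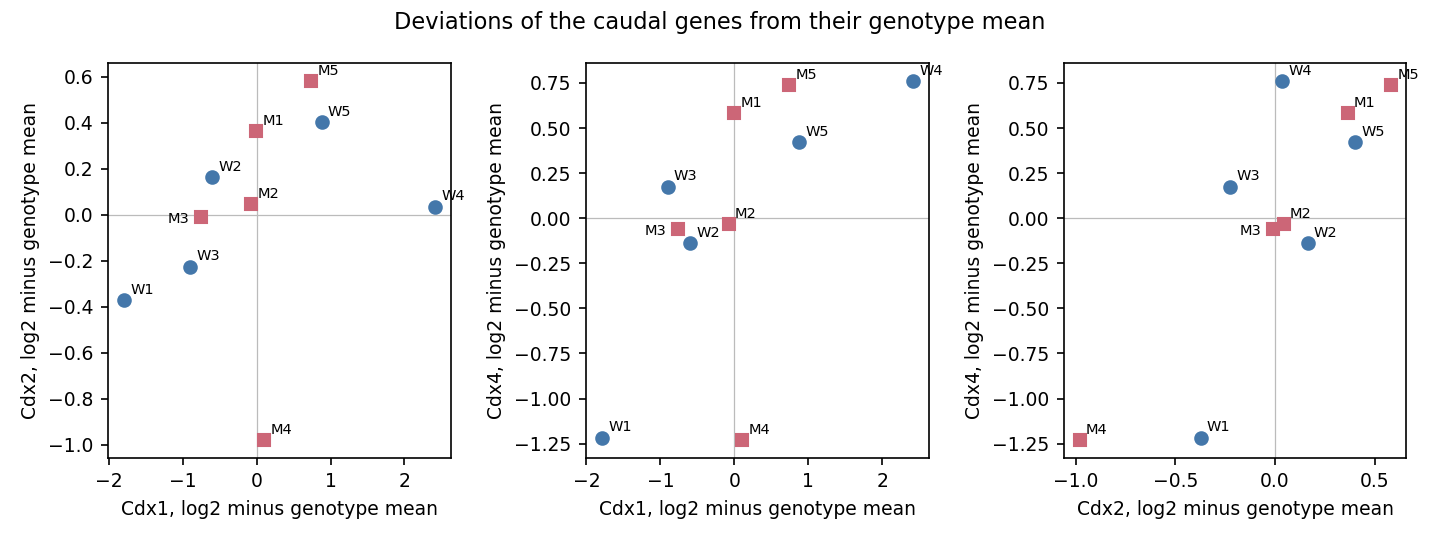
Deviation of log2(scaled count + 1) from the genotype mean for each pair of caudal genes, with WT embryos as circles (W1 to W5) and mutants as squares (M1 to M5). M4 is far below its genotype mean for Cdx2 (−0.98) and Cdx4 (−1.23) but near it for Cdx1 (0.10), and W4 is far above for Cdx1 (2.42) and near the mean for Cdx2 (0.03).

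The genes with the most similar profiles were found by the root-mean-square distance between log2 profiles over the 10 embryos, each centred on its own mean, among 11380 genes with a mean of at least 50 scaled counts over all embryos. Of the neighbours of Cdx4 and Cdx1, all but Sparcl1 passed this minimum only through the mutants, with WT means of 15.03 for Hoxa5, 18.9 for Ndnf, 19.7 for Hoxb9, 26.8 for Twist2 and 33.4 for Tie1. For Cdx4 they were Ndnf, which encodes a secreted protein (0.45), the trunk Hox gene Hoxb9 (0.46) and the mesenchymal factor Twist2 (0.50, with exons that overlap an antisense gene), against a median distance of 2.18. For Cdx1 they were the trunk Hox gene Hoxa5 (0.61), Sparcl1, of the matrix protein family of SPARC (0.66), and the endothelial receptor Tie1 (0.78), against a median of 1.72. Hoxa5 was so low in WT that its 1.67 scaled counts in WT 1 lay under the 3-read floor of 2.51. For Cdx2 they were Radil, which encodes a RAP1 effector (0.13), the anterior Hox gene Hoxd1 (0.15) and Pdlim4, which encodes a LIM-domain protein (0.16), against a median of 0.57. Between the members the distances were 1.15 for Cdx1 and Cdx4, 1.46 for Cdx1 and Cdx2, and 1.83 for Cdx2 and Cdx4. The neighbours were picked as the nearest of 11380 genes, so their distances are no yardstick for those between members. The distance includes the genotype difference and is large where fold changes are unequal, so it does not measure covariation within genotypes.

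Of 19 genes that act upstream of the caudal genes, 5 were higher and 9 lower in mutants (median log2 fold change −0.78, against 0.01 over all genes tested). Over all genes tested, 11.4% were called higher and 13.8% lower. The streak factor T fell by 1.62 (SE 0.19, limma adjusted p = 0.000196), the TCF repressor gene Tcf7l1 fell by 1.52 (SE 0.21) and the ligand Wnt5a rose by 1.25 (SE 0.18; antisense genes overlap the exons of Tcf7l1 and Wnt5a). The caudal-inducing ligands Wnt3a (−2.51, adjusted p = 0.0139) and Wnt8a (−4.17, adjusted p = 0.01) fell, and the WNT effectors Lef1 (0.80, adjusted p = 0.0133) and Tcf7 (0.83, adjusted p = 0.00161) rose. The library labelled mutant 4 had 299.2 scaled counts of Wnt3a and 329.5 of Wnt8a, within the WT ranges of 257.8 to 959.8 and 208.1 to 634.5. WT 4, the highest WT embryo for Cdx1 and Cdx4, was also the highest for both ligands. Fgf8 rose by 0.89 (adjusted p = 0.0193), while Fgf4 (−2.75) and the receptor Fgfr1 (−1.44) fell.

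Genes reported as targets of caudal proteins went both ways. Of 8, the Hox genes Hoxa5 (3.05, SE 0.65), Hoxa7 (3.64), Hoxb8 (2.80) and Hoxc8 (4.23, SE 0.44) and the retinoic acid-degrading enzyme gene Cyp26a1 (0.67, adjusted p = 0.019) rose, and T, Wnt3a and the NOTCH ligand gene Dll1 (−3.64, SE 0.42, overlapping an antisense gene) fell with limma (median 1.74). All 14 tested of 15 Hox genes of paralogue groups 5 to 9 were higher, from 0.79 for Hoxb5 to 5.18 for Hoxa9 (median 3.05), and 8 of 9 tested of groups 10 to 13 (median 3.50), the exception being Hoxc13 (0.97, adjusted p = 0.244). Over all genes tested, 11.4% were called higher. The minimum mean of 10 scaled counts can be passed through the mutants alone, as by Hoxc11 (WT mean 1.27) and Hoxc6 (0 to 12.1 in WT). Hoxa6 and Hoxb13 lay under it, so the tested genes lean towards those that rose. Without that minimum, limma called 15 of groups 5 to 9 and 8 of groups 10 to 13 higher. Hoxc9 (4.02), Hoxa11 (4.24, overlapping the antisense RNA Hoxa11os), Hoxd11 (4.67, overlapping Gm28309) and Hoxc11 (5.92) were among those with the smallest adjusted p of their lists. In WT, Hoxc11 had 0 to 2.82 scaled counts, at or under the 3-read floor of each embryo. The size of its change thus depended on the pseudocount (6.48 with 0.5 and 4.30 with 5). The library labelled mutant 4 was the lowest mutant for 13 of the 14 Hox genes of groups 5 to 9 and 7 of the 9 of groups 10 to 13, as for Cdx2 and Cdx4. It was the lowest mutant for 25.3% of all genes tested. The pattern was not particular to Cdx and Hox genes, as that library was also the lowest mutant for 10 of the 13 endoderm genes.

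**Figure D5:**
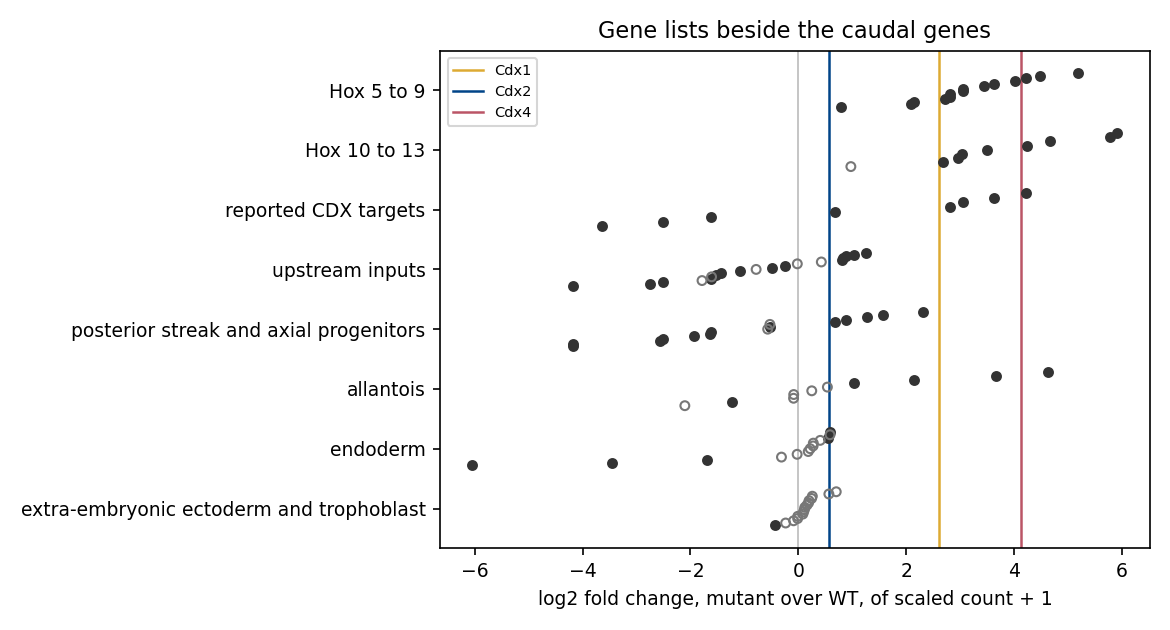
Log2 fold change (mutant over WT) of each tested gene in 8 of the lists, filled where the limma adjusted p is below 0.05, with vertical lines at the values of Cdx1 (2.60), Cdx2 (0.56) and Cdx4 (4.14). The Hox genes lie around the lines of Cdx1 and Cdx4, while most extra-embryonic ectoderm genes lie near 0.

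Markers of the tissues in which caudal genes are known to be active moved in both directions or did not pass the threshold. Among 15 genes of the posterior streak and axial progenitors 5 were higher and 8 lower (median −0.57), where 11.4% and 13.8% of all genes tested were. Evx1, a homeobox gene of the posterior streak, was one that rose (1.27, adjusted p = 0.0096), with 1494 scaled counts in the library labelled mutant 4 against 3096 to 5273 in the other mutants. Tbx6 (−4.17, SE 0.65) and Sp8 (−2.57, SE 0.39) fell. Of 10 allantois genes 4 were higher, among them Itga4 (4.63, SE 0.29, overlapping Cerkl), Tbx4 (3.67, SE 0.37) and Pitx1 (2.14, SE 0.26, overlapping an antisense gene), and Rspo3 was lower (−1.22; median of the list 0.39). The allantois marker Vcam1 went the other way without passing the threshold (−2.10, limma adjusted p = 0.196). It had 77.8 scaled counts in the library labelled mutant 4, 0 to 2.24 in the other mutants and 5.03 to 34.7 in WT. Without that library 4 allantois genes were higher and 2 lower.

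Cdx2 is a known gene of the extra-embryonic ectoderm, and of 16 genes of that tissue and the trophoblast 1 passed the threshold with limma, the receptor gene Fgfr2, which fell (−0.43, SE 0.08, overlapping Ctbp2; median of the list 0.12). Over all genes tested, limma called 25.1% in either direction. DESeq2 called 2 genes of the list, of which 1 was higher. The defining markers Elf5 (−0.01), Eomes (0.19) and Esrrb (0.08) had differences within their standard errors. In the library labelled mutant 4 the summed level of the list was 120620 scaled counts against 60630 to 81203 in WT, while Cdx2, Elf5, Eomes and Esrrb were at their lowest. The lowest mutant sum was 66795. Krt8 (37711), Krt18 (21419) and Hand1 (20275), which is also on the allantois list, were the largest parts of the sum in that library. The sum is thus no measure of extra-embryonic ectoderm alone.

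Of 13 endoderm genes 2 were higher and 3 lower with limma (median 0.22). Over all genes tested, 11.4% were called higher and 13.8% lower. Cer1 (−6.04, SE 0.80), Trh (−3.45) and Foxa1 (−1.70) were the lower endoderm genes. Without the library labelled mutant 4 the count of higher endoderm genes was 6, where 13.4% of all genes were called higher. Intestinal genes known to follow Cdx2 later in life were mostly scarce: of 10, 6 were listed and 4 tested, of which the microvillus gene Vil1 rose (0.62, adjusted p = 0.032, overlapping Usp37) and the cadherin gene Cdh17 fell (−3.13, adjusted p = 0.0159), from 38.9 ± 19.2 to 6.07 ± 6.44 scaled counts (SD, n = 5); their median was 0.33. Vil1 lost its call in 9 of 21 alternatives, namely limma without a trend (adjusted p = 0.0623) and without any 1 embryo other than WT 2 or the library labelled mutant 4 (adjusted p = 0.0549 to 0.0809). Of the ParaHox genes that share the cluster history of Cdx2, Pdx1 did not pass the threshold (0.03, adjusted p = 0.947) and Gsx1 had at most 9.06 scaled counts in any embryo. Of 10 decidual and blood genes 3 were higher (median 0.68), among them Prl8a2 (4.03, SE 0.89), which had 7017 scaled counts in mutant 3 and 3260.38 in the library labelled mutant 4 against 17.8 to 300.9 in WT.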

How the data were processed

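The submitters' processing notes name cutadapt 1.6, STAR 2.5.0a, HTSeq 0.5.3, DESeq and the build mm10. The deposited table gives a signal for each of its 20006 listed genes in each library: read counts over a size factor of that library, scaled by the authors. For 20006 of 20006 genes the values were whole multiples of 1 step per embryo within 0.01 reads (100% of values), and those reads were recovered. Members had 93 to 9621 reads per embryo, and intervals cover the spread between embryos only.

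The 15429 genes whose scaled counts averaged at least 10 were compared on log2(scaled count + 1) with limma 3.58.1 (intensity trend) in R 4.3.3, with Benjamini-Hochberg adjustment over all of them and a threshold of 0.05. This scale understates the change of low genes. edgeR 4.0.16 and DESeq2 1.42.0 were run on the recovered reads as alternatives and called 3596 and 4533 genes, against 3877. Ratios and correlations used exact permutations over embryos (every assignment of 5 and 5, two-sided, or 14400 rearrangements within genotypes). The scripts were tested on simulated data.

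The members, the 11 gene lists and the rules were chosen with earlier results of these data known. Named genes were the members, Axin1 and Axin2, the 3 smallest adjusted p of each list, single list genes that departed from their list, and the 3 genes most like each member; others were chosen after their values were seen. The protein sequences were not used here, and the promoter of Cdx1 was missing from the promoter table. Listed genes were matched to GENCODE M21 by identifier for 19935 of 20006.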

Additional observations from a re-analysis of the deposited data

Results flagged for a closer look

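No group of 5 embryos was flagged for Cdx1, Cdx2, Cdx4 or their ratios by Dixon's test of the highest and lowest value on the log2 scale. Over the named genes and ratios 5 of 90 groups were flagged (5.56%), about the share that chance gives at the 95% level. Dll1 in the library labelled mutant 4 (454.8 scaled counts) lay far above the other mutants (73.7 to 99.7). Tbx4 in mutant 2 (1079 scaled counts) lay far below the other mutants. Vil1 was flagged in WT 2 (2745.5 scaled counts, above the other WT embryos) and in the library labelled mutant 4 (1818 scaled counts, below the other mutants). Hba-a2, a near-identical copy of Hba-a1 between which reads can be split, was flagged in mutant 1 (0 scaled counts).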

How the results depend on the processing

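Cdx4 passed the threshold, and in the same direction, in all 21 alternatives. Cdx1 lost its call with edgeR (1.89), and without 1 embryo it ran from 2.15 to 3.20. Cdx2 gained a call with DESeq2 (0.62), for mutants 1, 2 and 5 against WT (0.89, an alternative chosen after seeing the data) and without the library labelled mutant 4, in a range of 0.42 to 0.81. With mutants 1, 2 and 5 the ratio differences were 1.93 (Cdx1 to Cdx2), 3.67 (Cdx4 to Cdx2) and 1.75 (Cdx4 to Cdx1) with exact permutation adjusted p of 0.125, 0.0536 and 0.0804, and Cdx2 and Cdx4 had an r of 0.68. Fewer mutants leave fewer assignments and a larger smallest exact p, so these adjusted p are not comparable with those of all embryos. The Cdx4 to Cdx2 ratio of each of these mutants (log2 0.11 to 0.40) still lay above every WT embryo (at most −2.66). Without 1 embryo the ratios of Cdx1 to Cdx2 and Cdx4 to Cdx1 ran from 1.69 to 2.64 and from 1.12 to 1.87, the r of Cdx2 and Cdx4 from 0.71 to 0.90 and those of Cdx1 and Cdx4 from 0.43 to 0.85 and of Cdx1 and Cdx2 from 0.19 to 0.61. The r of Cdx2 and Cdx4 lost its call without WT 1 (adjusted p = 0.0573), the library labelled mutant 4 (0.0693) or mutant 5 (0.051). The genes past the threshold numbered 2481 when WT 5 was left out and 4544 when the library labelled mutant 4 was. Called genes ran from 4 to 9 for the endoderm list (9 for mutants 1, 2 and 5), from 1 to 2 for the extra-embryonic ectoderm list (2 with DESeq2) and from 1 to 2 for the intestinal list (1 with a minimum mean of 50 and 1 without a trend). The cause of these changes was not tested, and the comparisons that leave out embryos also differ in the number of embryos. Of 817 values for 39 other named genes, 787 kept their side of the threshold, 19 lost and 11 gained it, and 0 reversed.

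The replicate numbers did not pair the embryos: deviations of same-numbered embryos correlated at -0.079 to 0.079 across genes. With the number as a block, 3253 genes passed and the adjusted p was 0.00664 for Cdx1, 0.0951 for Cdx2 and 0.000953 for Cdx4, with no change of call.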
